A study of Mus musculus with 6 samples.

Results

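Adipokines are proteins that fat cells, and other cells of fat tissue, release into the blood or into the tissue around them. The genes described here are Lep, Adipoq, Retn, Nrg4, Sfrp5, Rbp4, Apln, Nampt, Rarres2 and Itln1, 10 genes chosen by symbol out of 54532 in the deposited count table. Bulk RNA sequencing covered 2 groups of 3 libraries of inguinal fat, the white adipose depot under the skin of the groin. The Cdo1AKO libraries came from mice in which Cdo1, the gene of the cysteine-oxidising enzyme cysteine dioxygenase 1, was knocked out in adipose tissue. The control libraries came from Cdo1flox/flox mice, which the labels also call WT. All mice were put on a high-fat diet at 8 weeks of age and kept on it for 15 weeks, so no lean or chow-fed group is set beside them. The Cre line that deleted the gene and the sex of the mice are not given in the sources used here.

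Leptin, the product of Lep, reports the size of fat stores to the brain and is made in larger amounts by larger fat cells. Adiponectin, from Adipoq, is made almost only by adipocytes and promotes fatty acid oxidation and insulin sensitivity in other tissues, and its blood level is usually lower in obesity. The other genes encode factors with narrower or local roles: resistin, retinol-binding protein 4 and chemerin in the blood, neuregulin 4 from thermogenic fat, the Wnt antagonist Sfrp5, the vascular peptide apelin, and the NAD-synthesising enzyme Nampt, which is also found outside cells as visfatin.

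Of the 10 genes, 9 had enough counts to be tested. Nrg4 and Nampt were lower and Sfrp5 was higher in every Cdo1AKO library than in every control library. Of all tested genes, 9.73% lay without overlap on the lower and 8.87% on the higher side. Nrg4, Nampt and Sfrp5 kept their direction in every fit that was run. So did Retn, whose groups overlapped and whose log2 fold change ran from -1.16 to -0.11. Lep and Apln stood far higher in the library Cdo1AKO 2 than in any other library and overlapped between the other libraries. Adipoq, Retn, Rbp4 and Rarres2 also had their highest Cdo1AKO value in Cdo1AKO 2, the Cdo1AKO library with the most adipocyte transcripts. Itln1 had no counts.

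None of the 9 passed the edgeR quasi-likelihood test at an adjusted p under 0.05, which 0% of all 16623 tested genes passed. At an unadjusted p under 0.05 there were 3 of the 9 (Nrg4, Nampt and Sfrp5), beside 10.4% of all genes. DESeq2 called 2 (Nrg4 and Sfrp5), beside 1.48% of all genes. With a term that marks libraries holding lymph node transcripts, edgeR called Nrg4, Nampt and Sfrp5, beside 4.13% of all genes. In the 4 libraries that hold such transcripts edgeR called 1 of the 9 higher (Sfrp5), beside 7.65% of all genes. It called 5 lower (Nrg4, Nampt, Adipoq, Retn and Rarres2), beside 7.7%. In that fit Cdo1AKO was libraries 1 and 3, the most alike pair within a group (chi-square 5.69 per gene, against 23.4 to 209).

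Promoters of 5 of these genes are shown first, as RefSeq windows of 300 bases on GRCm38.p6, from about 250 bases before to 50 bases after the start of the transcript. Lep and Adipoq are shown because their levels parted in Cdo1AKO 2, and Nrg4, Nampt and Sfrp5 because their groups did not overlap. Capitals mark every match, on either strand, to 5 motifs: the palindrome TTGCGCAA bound by C/EBP factors, the CCAAT box (CCAAT), the TATA box (TATAA), the E-box of clock factors (CACGTG) and the PPAR element (AGGTCA and AGGTCA with 1 base between them).
Lep, chr6:29059971-29060270, plus strand: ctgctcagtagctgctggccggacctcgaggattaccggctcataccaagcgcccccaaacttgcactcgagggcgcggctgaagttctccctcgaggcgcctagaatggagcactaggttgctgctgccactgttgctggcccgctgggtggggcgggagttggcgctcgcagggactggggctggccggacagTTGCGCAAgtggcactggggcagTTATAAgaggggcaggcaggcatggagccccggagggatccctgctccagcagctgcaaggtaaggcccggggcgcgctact
Adipoq, chr16:23146286-23146585, plus strand: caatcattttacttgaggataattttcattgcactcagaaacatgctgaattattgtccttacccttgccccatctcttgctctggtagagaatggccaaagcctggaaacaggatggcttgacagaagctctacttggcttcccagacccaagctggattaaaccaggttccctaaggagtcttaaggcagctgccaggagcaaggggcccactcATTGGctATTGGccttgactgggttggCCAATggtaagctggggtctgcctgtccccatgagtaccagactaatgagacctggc
Nrg4, chr9:55283576-55283875, minus strand: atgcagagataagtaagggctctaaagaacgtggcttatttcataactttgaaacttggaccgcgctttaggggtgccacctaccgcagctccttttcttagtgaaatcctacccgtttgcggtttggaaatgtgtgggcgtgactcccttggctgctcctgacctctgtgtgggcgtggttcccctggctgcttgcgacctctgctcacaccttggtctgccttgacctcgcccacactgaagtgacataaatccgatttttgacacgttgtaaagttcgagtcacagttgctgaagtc
Nampt, chr12:32820085-32820384, plus strand: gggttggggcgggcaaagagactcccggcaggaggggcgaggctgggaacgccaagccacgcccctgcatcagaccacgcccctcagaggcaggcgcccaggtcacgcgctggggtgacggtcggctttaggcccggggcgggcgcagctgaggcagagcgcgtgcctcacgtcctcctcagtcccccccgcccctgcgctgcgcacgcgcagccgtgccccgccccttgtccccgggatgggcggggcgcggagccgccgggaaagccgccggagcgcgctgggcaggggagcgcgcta
Sfrp5, chr19:42202203-42202502, minus strand: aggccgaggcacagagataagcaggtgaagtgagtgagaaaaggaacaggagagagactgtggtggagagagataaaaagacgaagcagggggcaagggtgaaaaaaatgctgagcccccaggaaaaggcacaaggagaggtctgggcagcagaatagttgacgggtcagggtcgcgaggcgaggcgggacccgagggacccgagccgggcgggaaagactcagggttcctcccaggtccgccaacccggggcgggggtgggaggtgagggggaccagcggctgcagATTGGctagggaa

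Counted from 1 at the 5′ end of the window, Lep held the C/EBP palindrome at positions 196 to 203 and a TATA match at 220 to 224, overlapped by its reverse-strand match at 219 to 223. The palindrome was found in 60 of 32851 RefSeq promoter windows (0.183%), and TATAA in 24.9% of them. Adipoq held 3 CCAAT boxes, at positions 217 to 221, 224 to 228 and 244 to 248, and Sfrp5 held 1 at 288 to 292. CCAAT was found in 37.4% of all windows. Nrg4 and Nampt held none of the 5 motifs, and their windows lie inside the spans that the deposited table lists for these genes, which reach further upstream. E-boxes (7.15% of all windows) and the PPAR element (0.0396%) were found in none of these 5 windows. A match is a run of letters, and neither a match nor its absence shows what binds there.

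The libraries held 16275184 to 19205804 counts and were not alike within groups. The median CPM (counts relative to the library size after TMM scaling for composition) of 11 B cell and lymph node stroma markers was 0.450 in Cdo1AKO 2 and 57.6 and 76.1 in Cdo1AKO 1 and 3, against 0.0614 in control 1 and 122 and 73.3 in control 2 and 3. Each group thus had 1 library without lymph node transcripts, in which Glycam1 and Ccl21a of that list were at 0 counts. Summed over 15 adipocyte markers, all of them present, the level was 33092 to 75602 CPM in Cdo1AKO and 50809 to 74682 CPM in controls, with Cdo1AKO 2 and control 1 highest in their groups. Cdo1 itself was at 123, 392 and 134 CPM in Cdo1AKO 1 to 3 and at 887, 432 and 631 CPM in control 1 to 3. Cdo1AKO 2 thus came near control 2, the control with the lowest sum of adipocyte markers. Over control 1, the other library without lymph node transcripts, its log2 ratio of Cdo1 was -1.18. In bulk tissue, fewer cells of a type and less RNA per cell cannot be told apart.

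Leptin and adiponectin, the 2 main hormones of adipocytes, parted between the libraries. Lep (mm10 chr6:29060220-29073877, plus strand) had 1483, 8301 and 1566 CPM in Cdo1AKO 1 to 3, against 1527, 1655 and 1619 CPM in control 1 to 3. Adipoq (chr16:23146536-23158028, plus strand) had 1492, 2801 and 1584 CPM in Cdo1AKO 1 to 3, against 3077, 2171 and 2604 CPM in control 1 to 3. Leptin mRNA was therefore nearly level in 5 libraries and 5.01 times the next highest value in Cdo1AKO 2, and adiponectin mRNA in Cdo1AKO 2 lay inside the control range and in Cdo1AKO 1 and 3 below it. The log2 fold change of Cdo1AKO over control was 1.24 ± 0.73 for Lep (SE, adjusted p = 0.608 by edgeR) and -0.42 ± 0.35 for Adipoq (adjusted p = 0.704). Without Cdo1AKO 2 these were -0.070 ± 0.11 and -0.77 ± 0.18, with adjusted p = 0.692 and 0.0974 by edgeR.

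**Figure D1:**
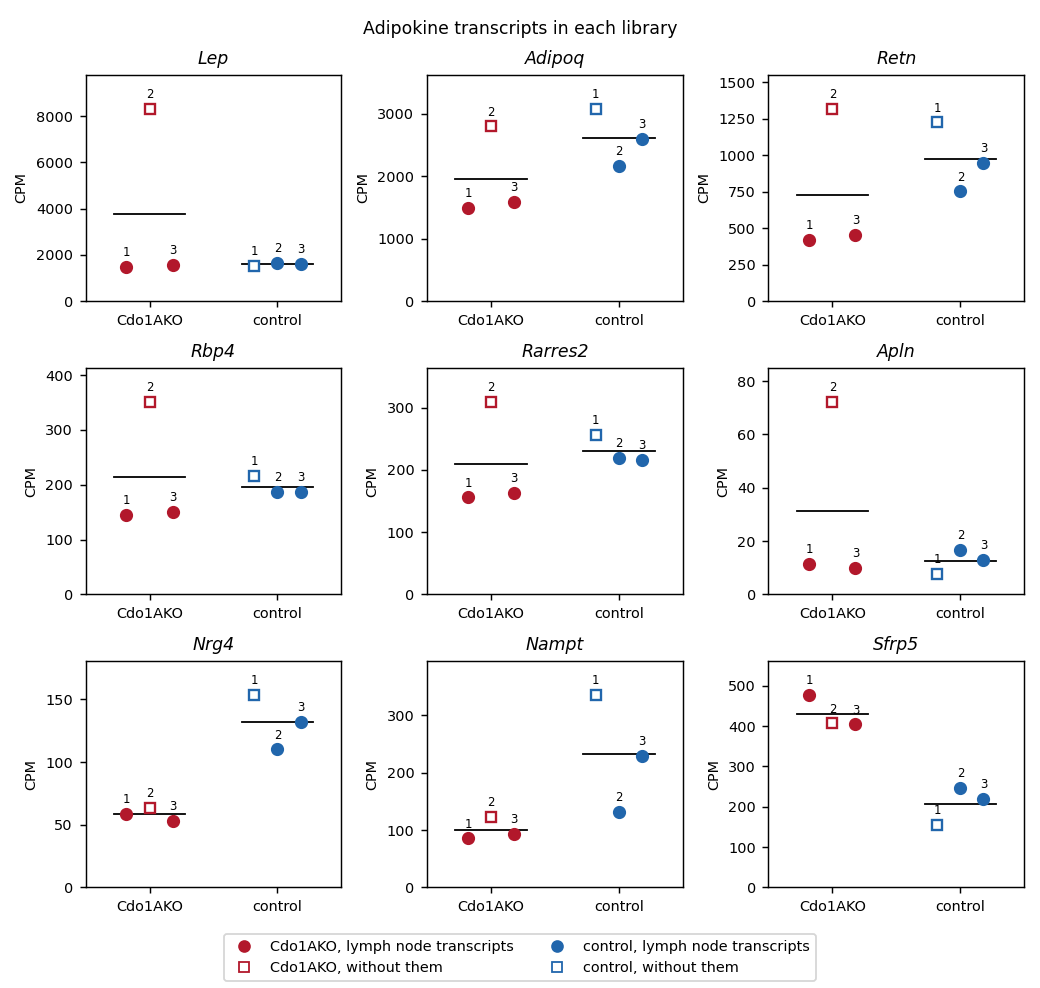
Each panel gives the CPM of an adipokine gene in the 3 Cdo1AKO libraries (red, left) and the 3 control libraries (blue, right), numbered by replicate, with the group mean as a line. Filled circles are libraries with lymph node transcripts and open squares those without. Lep and Apln are high in Cdo1AKO 2 only, at 8301 and 72.1 CPM, and the groups do not overlap for Nrg4, Nampt and Sfrp5.

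Set against each other within a library, a measure that does not depend on the scaling between libraries, Lep and Adipoq gave groups that did not overlap. The count of Lep over that of Adipoq was 0.994, 2.96 and 0.988 in Cdo1AKO 1 to 3, against 0.496, 0.762 and 0.622 in control 1 to 3. Every Cdo1AKO library lay above every control library, also those in which Lep itself was no higher. The mean log2 ratio was 0.51 ± 0.91 in Cdo1AKO and -0.70 ± 0.31 in controls (SD, n = 3 each), a difference of 1.21, and 0.68 without Cdo1AKO 2. The exact two-sided permutation test gave p = 0.1, the smallest that 3 against 3 libraries allow. Set against Adipoq in this way, 22% of all tested genes lay without overlap on the higher side and 1.96% on the lower side. Of the other 7 adipokine genes, Sfrp5, Rbp4 and Rarres2 did so on the higher side and Nrg4 and Nampt on the lower.

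Against the summed counts of the 15 adipocyte markers, Lep made up 4.48%, 11.0% and 4.50% in Cdo1AKO 1 to 3, against 2.05%, 3.26% and 2.63% in control 1 to 3. Adipoq made up 4.51%, 3.70% and 4.56% in Cdo1AKO 1 to 3, against 4.12%, 4.27% and 4.24% in control 1 to 3. Adiponectin mRNA thus kept a nearly fixed share of this sum, in which Fabp4 and Car3 had the highest levels in every library. Leptin mRNA had a larger share of it in each Cdo1AKO library, as for 16.1% of all tested genes on the higher side. With the library size of the edgeR fit taken from the adipocyte markers, the log2 fold change was 1.33 ± 0.40 for Lep and 0.02 ± 0.16 for Adipoq (SE, adjusted p = 0.432 and 0.949). That scaling moved the median of all genes by 0.53 on the log2 scale, to 0.58, so Adipoq lies below and Lep above that median. At an unadjusted p under 0.05 on this scale there were 2 of the 9 higher (Lep and Sfrp5) and 0 lower, beside 10.2% of all genes higher and 0.517% lower.

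**Figure D2:**
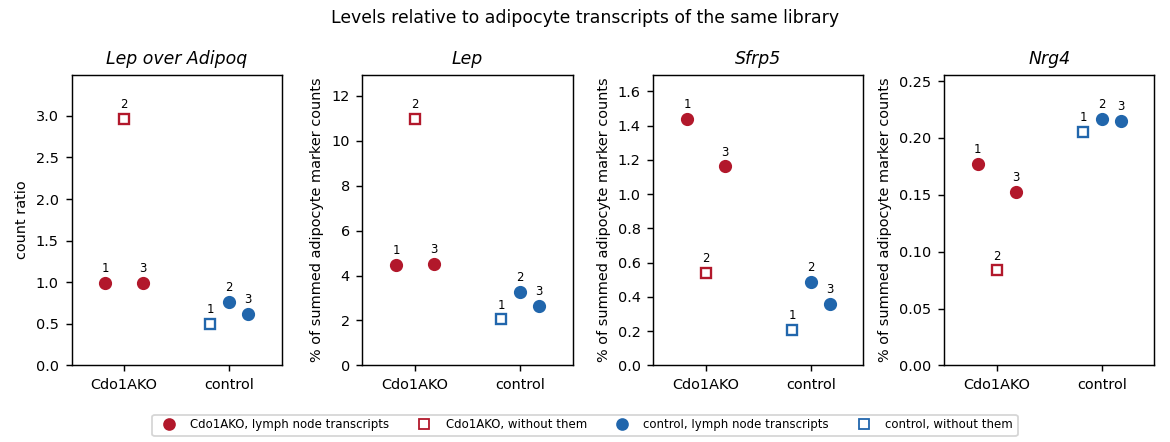
The left panel gives the count of Lep divided by that of Adipoq, and the other panels the counts of Lep, Sfrp5 and Nrg4 as a percentage of the summed counts of 15 adipocyte markers, in each Cdo1AKO (red, left) and control (blue, right) library. Lep over Adipoq is 0.988 to 2.96 in Cdo1AKO and 0.496 to 0.762 in controls.

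The genes of the circulating proteins resistin, retinol-binding protein 4 and chemerin had overlapping groups. Retn (chr8:3655770-3660110, plus strand), whose product is secreted by adipocytes in mice and impairs insulin action there, had 417, 1316 and 456 CPM in Cdo1AKO 1 to 3, against 1225, 752 and 945 CPM in control 1 to 3. Rbp4 (chr19:38116620-38125321, minus strand), the blood carrier of retinol, had 145, 351 and 150 CPM in Cdo1AKO 1 to 3, against 215, 186 and 187 CPM in control 1 to 3. Rarres2 (chr6:48569696-48572789, minus strand), which encodes the chemoattractant chemerin, had 156, 309 and 163 CPM in Cdo1AKO 1 to 3, against 257, 219 and 216 CPM in control 1 to 3. In all 3 genes Cdo1AKO 2 stood above every control library and Cdo1AKO 1 and 3 below every control library.

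The log2 fold changes over the 6 libraries were -0.42 ± 0.50 for Retn, 0.13 ± 0.37 for Rbp4 and -0.14 ± 0.30 for Rarres2 (SE, adjusted p = 0.793, 0.917 and 0.886 by edgeR). Among the 4 libraries with lymph node transcripts, Cdo1AKO 1 and 3 against control 2 and 3, they were -0.96 ± 0.15, -0.35 ± 0.10 and -0.45 ± 0.10 (adjusted p = 0.00872, 0.0592 and 0.0290), and Adipoq had -0.64 ± 0.14 (adjusted p = 0.0290). In that fit 15.3% of all genes passed. It rests on Cdo1AKO 1 and 3, the most alike pair of libraries within a group (chi-square of 5.69 per gene). The labels do not say whether these are separate animals. Without Cdo1AKO 2 alone, Retn had -1.16 ± 0.22 (adjusted p = 0.0877). In the 2 libraries without lymph node transcripts, 1 per group and so without a test, Cdo1AKO 2 over control 1 gave log2 ratios of 0.10 for Retn, 0.70 for Rbp4, 0.27 for Rarres2 and -0.14 for Adipoq. The adipocyte markers summed to 33092 and 34774 CPM in Cdo1AKO 1 and 3 and 75602 CPM in Cdo1AKO 2, against 74682 CPM in control 1 and 50809 and 61458 CPM in control 2 and 3. They moved with these genes, and their part in the differences was not tested beyond the scaling given here. Scaled to those markers, Retn had -0.11 ± 0.20, Rbp4 0.47 ± 0.21 and Rarres2 0.26 ± 0.22 (SE) on the log2 scale, where the median of all genes was 0.58.

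**Figure D3:**
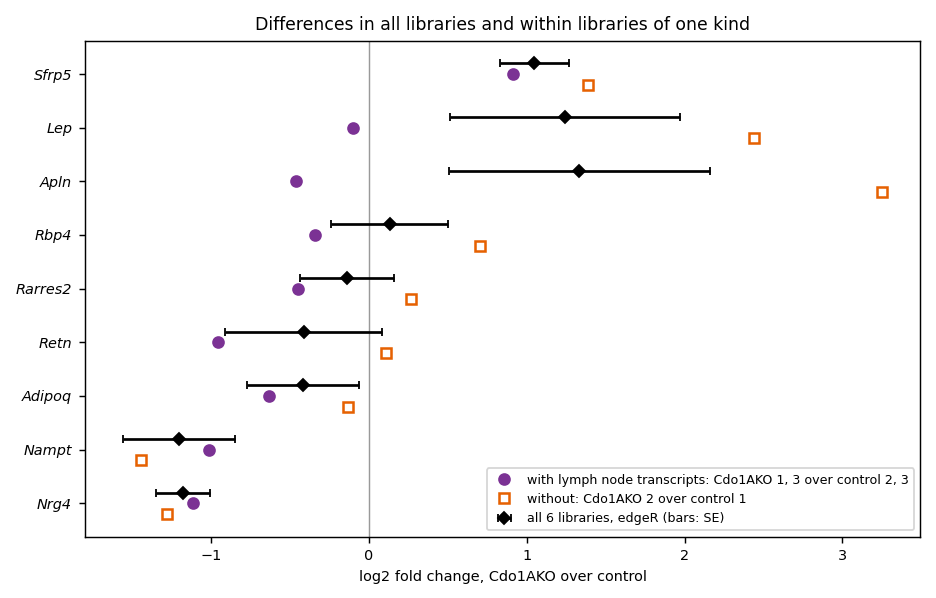
Rows are the 9 tested genes and the axis is the log2 fold change of Cdo1AKO over control. Diamonds give the edgeR estimate over all 6 libraries with its SE, circles the ratio of mean CPM among the 4 libraries with lymph node transcripts, and open squares the ratio of the single pair without them. Nrg4, Nampt and Adipoq lie below 0 and Sfrp5 above 0 in each, while Lep, Apln, Rbp4, Rarres2 and Retn change side between the circles and the squares.

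Neuregulin 4, a ligand of the ERBB receptors that brown and beige adipocytes release, was below the controls in every Cdo1AKO library. Nrg4 (chr9:55220222-55326844, minus strand) had 58.6, 63.1 and 52.9 CPM in Cdo1AKO 1 to 3, against 153, 110 and 132 CPM in control 1 to 3. The groups did not overlap, as for 9.73% of all tested genes on the lower side, and the 3 Cdo1AKO libraries lay close together, with a mean of 58.2 ± 5.11 CPM against 132 ± 21.5 CPM in controls (SD, n = 3 each). The log2 fold change was -1.18 ± 0.17 (SE, adjusted p = 0.230 by edgeR, unadjusted p = 3.59e-04). DESeq2 called it (adjusted p = 1.49e-04), with 0.965% of all genes called lower, and so did edgeR with a term for the lymph node transcripts (-1.17 ± 0.13, adjusted p = 0.0222), with 1.87% called lower. In the authors' deposited table Nrg4 had a log2 fold change of -1.18 and an adjusted p of 1.41e-04. For all 9 tested genes that table nearly matches DESeq2 here in log2 fold change and unadjusted p, so it is not a separate result. The log2 ratio of Nrg4 was -1.12 among libraries with lymph node transcripts and -1.28 in the pair without them.

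As a share of the adipocyte marker counts, Nrg4 stood at 0.177%, 0.0835% and 0.152% in Cdo1AKO 1 to 3, against 0.205%, 0.217% and 0.215% in control 1 to 3. Its share of that sum was thus below the controls in each Cdo1AKO library, as for 1.68% of all tested genes on the lower side. Its log2 fold change on that scale was -0.63 ± 0.33 (SE, adjusted p = 0.432 by edgeR). The sum does not stand for each marker. With TMM scaling the log2 fold changes of the markers ran from -1.79 (Adrb3) to 0.11 (Lpl), against -1.18 for Nrg4. The deposited counts name no strand, and the gene's span overlaps Fbxo22 on the plus strand. Fbxo22 had 54.5, 60.5 and 54.6 CPM in Cdo1AKO 1 to 3 and 80.1, 67.1 and 73.2 CPM in control 1 to 3, a log2 fold change of -0.38 ± 0.13 (adjusted p = 0.427), and reads where the genes overlap cannot be told apart unless the counting used strand, which is not stated. The 7 Schwann cell markers, none of them at 0, summed to 21.1 to 36.5 CPM in Cdo1AKO and 51.8 to 90.1 CPM in controls. Of these, 6 lay below the controls in each Cdo1AKO library, as did 9.73% of all tested genes. S100b overlapped and was highest in Cdo1AKO 2. The part of Schwann cells in the level of Nrg4 was not tested.

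Nampt (chr12:32819545-32853349, plus strand), the rate-limiting enzyme of NAD salvage, was below the controls too. It had 85.4, 123 and 92.9 CPM in Cdo1AKO 1 to 3, against 335, 132 and 229 CPM in control 1 to 3. The groups did not overlap, but Cdo1AKO 2 came near control 2, and the controls spread more widely than the Cdo1AKO libraries (100.5 ± 19.9 CPM in Cdo1AKO against 232 ± 102 CPM in controls, SD, n = 3 each). The log2 fold change was -1.21 ± 0.36 (SE, adjusted p = 0.372 by edgeR). DESeq2 did not call it (adjusted p = 0.0865), nor did the authors' deposited table (adjusted p = 0.0821), and edgeR with the lymph node term did (-1.16 ± 0.23, adjusted p = 0.0426). Against the adipocyte markers its groups overlapped, at 0.163% to 0.267% in Cdo1AKO and 0.259% to 0.448% in controls. Gdap10, a long noncoding gene on the same strand that overlaps the span of Nampt, had 8.50, 1.61 and 6.48 CPM in Cdo1AKO 1 to 3 and 23.2, 8.93 and 14.2 CPM in control 1 to 3.

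Sfrp5, which encodes a secreted protein that binds Wnt ligands and keeps them from their receptors, was the only tested gene of the 9 that was higher in Cdo1AKO without overlap. Sfrp5 (chr19:42197971-42202252, minus strand) had 476, 406 and 404 CPM in Cdo1AKO 1 to 3, against 155, 247 and 220 CPM in control 1 to 3. The lowest Cdo1AKO library was well above the highest control library, and 8.87% of all tested genes lay without overlap on this side. The mean was 429 ± 40.9 CPM against 208 ± 47.5 CPM (SD, n = 3 each), with a log2 fold change of 1.05 ± 0.22 (SE, adjusted p = 0.309 by edgeR, unadjusted p = 0.00266). DESeq2 called it (adjusted p = 0.00633), with 0.513% of all genes called higher, and edgeR with the lymph node term did as well (1.07 ± 0.17, adjusted p = 0.0330), with 2.26% called higher. In the authors' deposited table, which nearly matches DESeq2 here, its log2 fold change was 1.05 and its adjusted p 0.00598. The log2 ratio was 0.91 among libraries with lymph node transcripts and 1.39 in the pair without them. As a share of the adipocyte marker counts it was 1.44%, 0.538% and 1.16% in Cdo1AKO 1 to 3, against 0.208%, 0.487% and 0.358% in control 1 to 3. The groups again did not overlap, but on this scale Cdo1AKO 2 came near control 2. On that scale 16.1% of all tested genes lay without overlap on the higher side.

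Apelin, a peptide of endothelial cells and adipocytes that acts on blood vessels, was low everywhere but in Cdo1AKO 2. Apln (chrX:48025146-48034853, minus strand) had 11.4, 72.1 and 9.99 CPM in Cdo1AKO 1 to 3, against 7.55, 16.5 and 12.9 CPM in control 1 to 3. The value of Cdo1AKO 2 was 4.36 times the next highest, and the other 5 libraries overlapped. Over all tested genes, 0.602% exceeded every other library in Cdo1AKO 2 by a factor above 4, a factor chosen after the values were seen. The log2 fold change was 1.33 ± 0.83 (SE, adjusted p = 0.622 by edgeR) and without Cdo1AKO 2 -0.21 ± 0.34 (adjusted p = 0.708). Its receptor gene Aplnr, named after its values were seen, was also highest in Cdo1AKO 2, with 24, 113 and 19.1 CPM in Cdo1AKO 1 to 3 and 25.6, 24.4 and 25.0 CPM in control 1 to 3.

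Markers of other cells were also higher in Cdo1AKO 2. The 9 blood endothelial markers summed to 976 to 2202 CPM in Cdo1AKO, highest in Cdo1AKO 2, and to 1057 to 1349 CPM in controls, and none was at 0 in any library. The 11 markers of adipocyte progenitors and fibroblasts summed to 2402 to 6354 CPM in Cdo1AKO, highest in Cdo1AKO 2, and to 2259 to 3196 CPM in controls, with none at 0. The 7 T cell markers went the other way, from 15.7 CPM in Cdo1AKO 2 to 909 CPM in Cdo1AKO 3, against 10.2 to 333 CPM in controls. The part of these cells in the levels of Lep and Apln was not tested.

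Itln1 (chr1:171518122-171535294, minus strand), the gene of the lectin omentin, had 0 counts in all 6 libraries. With 16275184 to 19205804 counts per library, a count of 0 allows up to 0.184 CPM in the shallowest and 0.156 CPM in the deepest, counting error only. Mesothelial cells are a known source of this lectin in visceral fat. Of the 8 mesothelial markers, Upk1b was at 0 in all 6 libraries. Msln was at 0 in every library but control 2 (0.0535 CPM), and Muc16 in every library but control 3 (0.0536 CPM). The list summed to 1.29 to 4.61 CPM in Cdo1AKO and 6.01 to 7.01 CPM in controls, mostly from its 2 tested genes.

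Per kilobase of gene length, on which levels of different genes can be compared, Adipoq led in both groups. It stood at 1418 ± 529 CPM per kilobase in Cdo1AKO and 1895 ± 328 in controls (SD, n = 3 each), between rank 16 and rank 23 of all tested genes in each library. In Cdo1AKO Lep (1128 ± 1167) and Retn (462 ± 322) came next and Sfrp5 (226 ± 21.6) stood before Rbp4 (166 ± 90.6), all in CPM per kilobase. In controls Retn (617 ± 150) and Lep (477 ± 19.7) came next and Rbp4 (151 ± 12.7) stood before Sfrp5 (109 ± 25.0). Between neighbours in this order, ranges over Cdo1AKO libraries overlapped for Adipoq and Lep, Lep and Retn, Sfrp5 and Rbp4, and Rbp4 and Rarres2. Over control libraries they overlapped for Retn and Lep and for Sfrp5 and Rarres2. Within each Cdo1AKO library, however, Lep stood above Retn and Rbp4 above Rarres2. The other pairs named here changed order between libraries of the group. Rarres2 followed with 78.8 ± 32.5 in Cdo1AKO and 86.9 ± 8.55 in controls. The lowest levels per kilobase were those of Nampt (19.9 ± 3.95 in Cdo1AKO and 45.9 ± 20.1 in controls), Apln (9.89 ± 11.3 and 3.92 ± 1.44) and Nrg4 (9.58 ± 0.841 and 21.7 ± 3.54). The ranges of Nampt and Apln, and of Apln and Nrg4, overlapped in Cdo1AKO and not in controls. Nampt still stood above Apln within each Cdo1AKO library, while Apln and Nrg4 changed order there. Lep ranked 66, 16 and 66 in Cdo1AKO 1 to 3 and 81, 61 and 63 in control 1 to 3 among all tested genes.

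Of the genes that bind or sense the adipokines, 18 were tested, 10 with a positive and 8 with a negative log2 fold change and a median of 0.06, beside 0.06 over all genes. Without Cdo1AKO 2 there were 6 positive and 12 negative, with a median of -0.26, beside 0.01 over all genes. None passed edgeR. At an unadjusted p under 0.05, which 4.66% of all genes met on the higher and 5.71% on the lower side, 0 were higher and 3 lower. Beside 0.965% of all genes, DESeq2 called 1 of them lower. That gene was Erbb4, a receptor that binds neuregulin 4, with 1.55, 0.515 and 1.21 CPM in Cdo1AKO 1 to 3, against 7.24, 2.41 and 4.77 CPM in control 1 to 3 (adjusted p = 0.0302 by DESeq2). Both Erbb4 and its ligand gene Nrg4 therefore lay below the controls in each Cdo1AKO library. The adiponectin receptor gene Adipor2 had 837, 679 and 819 CPM in Cdo1AKO 1 to 3, against 1597, 1029 and 1356 CPM in control 1 to 3, also without overlap (log2 fold change -0.77 ± 0.25, adjusted p = 0.396 by edgeR). Tlr4, an innate immune receptor to which resistin can bind, had -0.45 ± 0.17 (adjusted p = 0.454).

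In leptin and adiponectin signalling, 13 genes were tested, 7 positive and 6 negative, with a median log2 fold change of 0.06, and of 0.26 without Cdo1AKO 2. None passed edgeR or DESeq2. Beside 4.66% of all genes higher and 5.71% lower at an unadjusted p under 0.05, there were 0 higher and 2 lower. These were Prkaa1, a catalytic subunit of AMP-activated protein kinase, with -0.40 ± 0.12, and Stk11, which phosphorylates that kinase, with -0.37 ± 0.15 (SE, adjusted p = 0.384 and 0.474 by edgeR). Stat3, the transcription factor that leptin activates through Jak2, had -0.32 ± 0.14 (adjusted p = 0.503). Among 9 genes that fold, modify or retain adiponectin in the endoplasmic reticulum, 5 were positive and 4 negative with a median of 0.07, against 3 and 6 with a median of -0.21 without Cdo1AKO 2, and 0 passed edgeR or DESeq2 or had an unadjusted p under 0.05. Colgalt1, Gstk1 and Plod3 had the smallest p of these, with 0.20 ± 0.14, -0.34 ± 0.30 and 0.46 ± 0.43 (log2 fold change, SE). Without Cdo1AKO 2, Plod3 had -0.23 and Gstk1 -0.68.

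Around Nampt, 17 genes of NAD synthesis and use were tested, 5 positive and 12 negative, with a median log2 fold change of -0.12. Without Cdo1AKO 2 there were 8 positive and 9 negative, with a median of -0.02. None passed edgeR or DESeq2. At an unadjusted p under 0.05 there were 1 higher and 2 lower, beside 4.66% and 5.71% of all genes. Nmnat3, which makes NAD from the product of Nampt, had 11.3, 8.75 and 9.22 CPM in Cdo1AKO 1 to 3, against 28.8, 15.0 and 19.9 CPM in control 1 to 3, without overlap (log2 fold change -1.12 ± 0.28, adjusted p = 0.345 by edgeR). The kinase gene Nadk2 had -0.49 ± 0.17 and Nmnat2, another enzyme of the same step as Nmnat3, 1.23 ± 0.45 (adjusted p = 0.431 and 0.432).

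Of the paralogs in the resistin family only Retnla, which is expressed in alternatively activated macrophages and adipose tissue of mice, was tested: it had 113, 311 and 114 CPM in Cdo1AKO 1 to 3, against 80.8, 61.3 and 69.3 CPM in control 1 to 3. The groups did not overlap, with a log2 fold change of 1.35 ± 0.43 (SE, adjusted p = 0.397 by edgeR) and 0.69 without Cdo1AKO 2. It passed edgeR with the lymph node term (adjusted p = 0.0457). The summed level of 9 macrophage markers, none of them at 0, was 714 to 762 CPM in Cdo1AKO and 471 to 695 CPM in controls, and its part in Retnla was not tested. The genes of the other secreted frizzled-related proteins had at most 7.91 CPM in any library. Sfrp1 had -0.62 ± 0.28, Sfrp2 0.86 ± 0.43 and Sfrp4 0.39 ± 0.38 (log2 fold change, SE, adjusted p = 0.523, 0.554 and 0.741 by edgeR). Without Cdo1AKO 2, Sfrp2 had 0.35 and Sfrp4 0.08. Of 5 tested ERBB ligands beside Nrg4, 3 were positive and 2 negative with a median of 0.09, against 2 and 3 with a median of -0.06 without Cdo1AKO 2. None passed edgeR or DESeq2 or had an unadjusted p under 0.05. Hbegf, Nrg2 and Tgfa had 1.46 ± 0.66, 0.77 ± 0.49 and -0.85 ± 0.57 (log2 fold change, SE), and 0.43, 1.04 and -0.56 without Cdo1AKO 2.

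Among the C1q and TNF related proteins, which share the domain structure of adiponectin, 5 of 7 tested genes were positive, with a median log2 fold change of 0.47, and of 0.11 without Cdo1AKO 2. None passed edgeR or DESeq2, and 3 were higher and 0 lower at an unadjusted p under 0.05, beside 4.66% of all genes higher. C1qtnf1 had 56.8, 67.1 and 60.3 CPM in Cdo1AKO 1 to 3, against 37.0, 41.5 and 46.9 CPM in control 1 to 3. C1qtnf6 had 20, 40.0 and 19.6 CPM in Cdo1AKO 1 to 3, against 11.4, 13.9 and 13.6 CPM in control 1 to 3. These 2 and C1qtnf7 lay above the controls in each Cdo1AKO library, as did 8.87% of all tested genes. The 3 log2 fold changes were 0.55 ± 0.15, 1.03 ± 0.32 and 0.47 ± 0.19 (SE, adjusted p = 0.351, 0.384 and 0.480 by edgeR). Without Cdo1AKO 2, C1qtnf6 had 0.61.

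**Figure D4:**
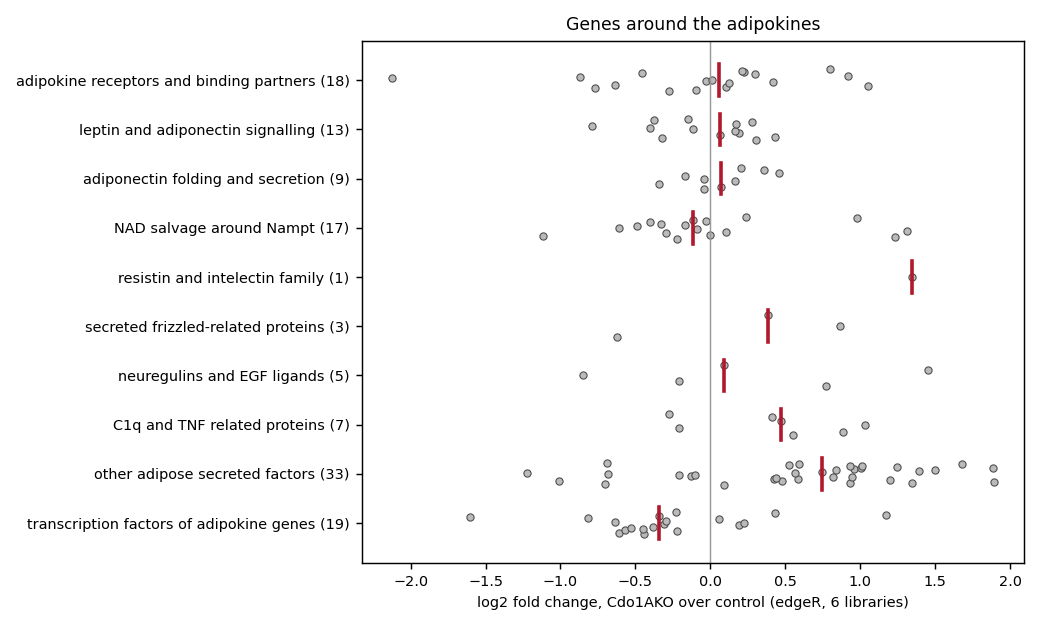
Each point is the log2 fold change of Cdo1AKO over control of a tested gene, from edgeR over 6 libraries, by list, and the red line is the list's median. The number of tested genes is in parentheses, and the adipokine genes themselves are left out. The medians run from -0.34 for transcription factors to 1.35 for the single tested gene of the resistin family.

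Of 33 other secreted factors of fat that were tested, 25 were positive and 8 negative, with a median log2 fold change of 0.74, beside 0.06 over all genes. These counts rest on Cdo1AKO 2, without which 16 were positive and 17 negative, with a median of -0.15. None passed edgeR. At an unadjusted p under 0.05 there were 5 higher and 2 lower, beside 4.66% and 5.71% of all genes. DESeq2 called 1 higher and 1 lower, beside 0.513% and 0.965% of all genes. Fgf10, a growth factor of adipocyte progenitors, had 42.5, 59.3 and 45.0 CPM in Cdo1AKO 1 to 3, against 104, 89.8 and 102 CPM in control 1 to 3 (adjusted p = 0.00300 by DESeq2). Fgf1, a growth factor induced in fat by a high-fat diet in mice, had 30.5, 109 and 30.1 CPM in Cdo1AKO 1 to 3, against 11.2, 18.4 and 15.8 CPM in control 1 to 3 (adjusted p = 0.0370 by DESeq2), and its log2 fold change by edgeR was 1.90 ± 0.57, or 1 without Cdo1AKO 2. Fgf10 was thus lower and Fgf1 higher in every Cdo1AKO library. Pm20d1, whose enzyme makes N-acyl amino acids, had a log2 fold change of 1.5 ± 0.48 (adjusted p = 0.396 by edgeR) and 0.91 without Cdo1AKO 2.

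Of 19 tested transcription factors known to act on leptin or adiponectin genes, 14 were negative and 5 positive, with a median log2 fold change of -0.34, beside 0.06 over all genes. The adipocyte markers moved with them, 14 of 15 being negative with a median of -0.50, and their part was not tested. None passed edgeR. At an unadjusted p under 0.05 there were 1 higher and 5 lower, beside 4.66% and 5.71% of all genes. DESeq2 called 2, both lower, beside 0.965% of all genes. Ebf2, a factor of adipocyte identity, had 13.4, 21.8 and 11.1 CPM in Cdo1AKO 1 to 3, against 59.6, 31.9 and 49.2 CPM in control 1 to 3 (adjusted p = 0.00447 by DESeq2). Ebf1, its paralog, had 104, 136 and 109 CPM in Cdo1AKO 1 to 3, against 207, 193 and 214 CPM in control 1 to 3 (adjusted p = 0.0106 by DESeq2). Both were lower in every Cdo1AKO library. Atf3, a stress-induced factor, had 4.8, 11.4 and 5.54 CPM in Cdo1AKO 1 to 3, against 2.64, 4.01 and 2.95 CPM in control 1 to 3 (log2 fold change 1.17 ± 0.41, adjusted p = 0.419 by edgeR, and 0.69 without Cdo1AKO 2). Cebpa, whose product binds the C/EBP palindrome capitalised in the Lep promoter, had 743, 1207 and 622 CPM in Cdo1AKO 1 to 3 and 1330, 1283 and 1312 CPM in control 1 to 3. Cebpa, named after its values were seen, lay below the controls in each Cdo1AKO library with a log2 fold change of -0.61 ± 0.30 (adjusted p = 0.548 by edgeR).

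The genes most like an adipokine gene across the 6 libraries were found by the root-mean-square difference of log2(CPM + 1) values, each gene centred on its mean. This is a description of 6 libraries that also differ in lymph node and adipocyte transcripts. Lep was most like Acss2, an acetyl-CoA synthetase, Nsdhl, of cholesterol synthesis, Tubb2a, a tubulin, Col5a3, a collagen chain, and Fmr1, an RNA-binding protein, at differences of 0.09 to 0.12. Acss2 had 32.5, 179.6 and 31.3 CPM in Cdo1AKO 1 to 3, against 38.0, 36.7 and 36.2 CPM in control 1 to 3. Adipoq was most like Coq3, of ubiquinone synthesis, Poldip2, Chp1, Cgnl1 and Ndufa10, a subunit of respiratory complex I, at 0.03 to 0.05. Chp1 had 428, 815 and 447 CPM in Cdo1AKO 1 to 3, against 861, 627 and 783 CPM in control 1 to 3.

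For the other genes the 2 nearest were Rbpms2 and Car3 for Retn, Hsd17b4 and Sncg for Rbp4, Lap3 and Syap1 for Rarres2, and Col15a1 and Krt79 for Apln. Slc20a2 and Acss3 were nearest to Nrg4, Chchd10 and Rgs7 to Nampt, and Egr2 and Hid1 to Sfrp5. Among the adipokine genes themselves Rbp4 and Rarres2 were the most alike (0.15), followed by Adipoq and Rarres2 (0.16) and Adipoq and Retn (0.26), while Nrg4 lay nearest to Nampt (0.28) and Lep nearest to Apln (0.29). The pair least alike was Apln and Nampt, at 1.37.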

How the data were processed

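The deposited table holds raw gene counts for 6 samples, FPKM, and a comparison made by the authors (log2 fold change, p-value, adjusted p-value), per the file headers. The submitters' processing notes name mm10, DESeq2 1.20.0, featureCounts 1.5.0-p3 and HISAT2 2.0.5 but no roles. Titles gave group and number, and the genotype label links the WT columns to the controls. FPKM was not tested. Whether counting used strand is not stated.

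Of 54532 genes, 16623 passed filterByExpr and were tested with edgeR 4.0.16 in R 4.3.3 (TMM factors, quasi-likelihood test on group alone, Benjamini-Hochberg adjustment over all genes). This test was also run on counts simulated from its own fitted model. That cannot show how it behaves with the lymph node split or with an outlying library. SE belongs to the log2 fold change, SD to 3 libraries. A library counts as holding lymph node transcripts if 11 B cell and lymph node stroma markers have a median CPM above 5. Named genes are the 10 adipokine genes, in each list the members that passed or else the 3 with the smallest p, genes that DESeq2 1.42.0 called, genes said in the text to be named after their values were seen, and the genes nearest in pattern (5 for Lep and Adipoq, 2 for each other gene). All genes, lists, tests and alternatives were chosen with earlier results of these data known. RefSeq promoters matched 9 of the 10 genes by symbol. The labels do not say whether libraries of a group are separate animals, and p-values measure the spread between these libraries only. Alternatives were RLE factors, scaling to adipocyte markers, no filter, DESeq2, a replicate block, the lymph node term, the 4 libraries with lymph node transcripts, and each sample left out.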

Additional observations from a re-analysis of the deposited data

How the results depend on the processing

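Across all genes edgeR called 0 with TMM or RLE factors, with adipocyte marker scaling, with no filter, with a replicate block and without each library in turn (0 to 0), and so 0 of the 9 tested adipokine genes. An unadjusted p under 0.05 was met by 3 of the 9 with TMM, RLE or no filter. The number was also 3 with any library but Cdo1AKO 2 left out, 2 with adipocyte marker scaling or the block, and 7 without Cdo1AKO 2. The share of all genes was 10.4% with TMM and 10.7% with adipocyte marker scaling. It was not counted for the other fits, so the 7 cannot be set against all genes. DESeq2 called 271 genes, of them 2 adipokine genes (Nrg4 and Sfrp5). The lymph node term gave 686 and 3 (also Nampt), and the 4 libraries with lymph node transcripts gave 2617 and 6 (also Adipoq, Retn and Rarres2). This last fit rests on Cdo1AKO 1 and 3, whose counts differed with a chi-square of 5.69 per gene, against 23.4 to 209 for the other pairs within a group. The causes were not tested. Log2 fold changes changed sign for Lep (-0.11), Rbp4 (-0.35) and Apln (-0.46) in those 4 libraries, for Adipoq (0.016) and Rarres2 (0.26) with adipocyte marker scaling, and for Rbp4 with the replicate block (-0.0019). With 1 library left out the values ran from -0.070 to 1.63 for Lep, from -1.16 to -0.13 for Retn, from -0.41 to 0.35 for Rbp4, from -0.21 to 1.76 for Apln and from -0.53 to 0.033 for Rarres2. The log2 ratio of Lep to Adipoq ran from 0.68 (without Cdo1AKO 2) to 1.48 (without Cdo1AKO 3) and was 1.22 over the summed adipocyte markers. Nrg4 stayed between -1.30 and -0.63, Nampt between -1.49 and -0.65 and Sfrp5 between 0.87 and 1.58 under all alternatives, with adjusted p from 1.49e-04 to 0.937 for Nrg4, from 0.0314 to 0.937 for Nampt and from 0.00633 to 0.937 for Sfrp5. Deviations from the group means of same-numbered libraries correlated at -0.66, -0.66 and 0.42. Cdo1AKO 2 and control 1, the libraries without lymph node transcripts, correlated at 0.69. The values follow that split and so cannot tell whether the replicate numbers pair the samples.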
